A study of Mus musculus with 70 samples.

Results

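The genes described here serve thyrotropin (TSH), the pituitary hormone that drives the thyroid gland, and thyrotropin-releasing hormone (TRH), the hypothalamic peptide that drives TSH. *Tshb* encodes the β subunit that gives TSH its identity, and *Cga* the α subunit that TSH shares with luteinizing and follicle-stimulating hormone. *Trhr* and *Trhr2* encode receptors for TRH, *Trh* encodes the precursor that is cut into TRH, and *Trhde* encodes a cell surface peptidase that degrades TRH. They were chosen by symbol for these roles, and all 6 were present among the 22835 gene symbols of the pituitary RNA-seq table.

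Thyrotrophs of the anterior pituitary respond to TRH through a receptor coupled to Gq and phospholipase C, which raises the synthesis and release of TSH. Thyroid hormone closes the loop by acting on the hypothalamus and on thyrotrophs, where its nuclear receptor TRβ, the product of *Thrb*, is abundant. Low thyroid hormone is therefore known for high TSH, and an excess for low TSH.

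The study asked how T3, the active thyroid hormone, and TRβ control genes of the mouse pituitary. RNA was sequenced from C57BL/6J mice, adult males 2 to 4 months old, that were wild type or carried no functional *Thrb* (*Thrb*-KO). For 4 or 5 weeks all of them drank water with methimazole (MMI) at 0.05% and potassium perchlorate at 1%, which blocks thyroid hormone synthesis. Groups given nothing more are called hypothyroid, and groups that also received 0.5 µg/ml T3 in the final 1 week are called hyperthyroid, so that both groups carried the blocking agents. Each library was made from 3 pooled pituitaries, and the groups held 4 libraries for each hormone state in wild type and 5 for each in *Thrb*-KO. No untreated RNA group was sequenced, so each comparison is between low and high hormone.

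TRβ binding came from untreated males with an HAB tag on the endogenous receptor, which BirA ligase from the *Rosa26* locus biotinylates, against mice with BirA alone. Each pituitary library of this chromatin affinity purification (ChAP-seq) pooled 12 glands, there were 3 libraries per genotype and tissue, and the cerebral cortex served as the other tissue. The control libraries are BirA by title, while their genotype entry reads as that of tagged mice, and the title was followed here. These mice are labelled C57BL/6J, while the study's methods describe crosses of mixed background. Open chromatin (ATAC-seq) was measured in 4 hypothyroid and 4 hyperthyroid libraries of nuclei captured through a Sun1-GFP envelope protein, which Cre from the b2 promoter of *Thrb* switches on, so that only cells with a history of b2 promoter activity were sampled. Peak lists hold 1 set of regions per tissue and no value per replicate.

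The RNA libraries held 21453548 to 55273749 matched reads, with a median of 34673225. A level of 3 reads, used as the floor below which no fold is given, stood for 0.0543 to 0.1398 CPM (read counts scaled to the same total in every library), and this floor covers counting error only. The libraries fell into a pair of sets that run across all 4 groups. The 8 libraries of replicates 1 and 2 held 2571 to 3420 CPM of *Lars2*, and the 10 libraries of replicates 3 to 5 held 53.2 to 95.1 CPM. Values within each set therefore stand beside the pooled values.

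*Thrb* RNA served to check the genotype labels. Hypothyroid wild-type libraries held 239, 242, 249 and 297 CPM of *Thrb*, and hypothyroid *Thrb*-KO libraries held 272, 295, 278, 271 and 239 CPM. Hyperthyroid wild-type libraries held 124, 117, 72.4 and 103 CPM, and hyperthyroid *Thrb*-KO libraries held 288, 301, 239, 245 and 228 CPM. The libraries labelled *Thrb*-KO were thus not lower in *Thrb* RNA, and since the whole transcript is counted, these levels do not check the deletion itself. The tissue label was checked with markers of pituitary cell types. Summed CPM over 2 somatotroph markers lay at 48444 to 159203, over 3 corticotroph markers at 2671 to 8909 and over 4 gonadotroph markers at 903 to 1367. None of the 35 markers of 12 cell types was at 0 in all libraries. These include hypothalamic markers such as *Crh*, with at most 2 reads in a library, so this last point does not check the tissue.

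Differences were tested with limma on log2(CPM + 1) over 13145 genes above 1 CPM in all 18 libraries. A gene is called when its Benjamini-Hochberg adjusted p is below 0.05 and its change at least 1.5-fold. *Tshb*, *Cga* and *Trhr* passed this limit on low values, *Trhde* was read from a wider table, and *Trh* and *Trhr2* were too low for a test. The log2(CPM + 1) scale understates the fold of genes with few reads, so ratios of mean CPM are given as well.

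*Tshb* stood near the top of the pituitary response to T3 in both genotypes. The 4 hypothyroid wild-type libraries held 3218, 2902, 6462 and 5679 CPM of *Tshb*, and the 4 hyperthyroid ones held 76.5, 40.5, 422 and 271 CPM. The groups did not overlap, and within each of them replicates 3 and 4 were the higher pair. Hypothyroid *Thrb*-KO libraries held 3227, 3212, 3547, 4461 and 4832 CPM, and hyperthyroid *Thrb*-KO libraries held 139, 84.9, 138, 169 and 149 CPM of *Tshb*. These groups did not overlap either, and the hyperthyroid *Thrb*-KO libraries lay inside the range of the hyperthyroid wild type. Whole pituitaries were sequenced, so fewer thyrotrophs and less *Tshb* RNA per thyrotroph cannot be told apart.

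The mean of *Tshb* was 22.5-fold lower with T3 in wild type, from 4565 ± 1772 to 203 ± 178 CPM (SD, n = 4 and 4). In *Thrb*-KO it was 28.3-fold lower, from 3856 ± 746 to 136 ± 31.1 CPM (SD, n = 5 and 5). In limma the wild-type change of *Tshb* was -4.95 on the log2(CPM + 1) scale (adjusted p 9.4e-07), with 4 of 4 hyperthyroid libraries below all hypothyroid ones, and it ranked 2 of 13145 genes among falls. The *Thrb*-KO change in limma was -4.83 (adjusted p 2.77e-06, 5 of 5 libraries lower) and ranked 1. Within replicates 1 and 2 the *Tshb* change was -5.75 in wild type and -4.87 in *Thrb*-KO, and within replicates 3 to 5 it was -4.16 and -4.80. Leaving out each library gave -5.49 to -4.37 in wild type and -4.91 to -4.67 in *Thrb*-KO. The wild-type change thus depends on the library set, and leaving out 1 library moved it less than that. Of the 3 members in this fit, all 3 were called lower in the wild-type response and all 3 in the *Thrb*-KO response, where 9.46% and 1.01% of all genes tested were called.

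The response of *Tshb* was not shown to differ between genotypes. The interaction, which is the *Thrb*-KO response less the wild-type response, was 0.13 in limma (95% interval -1.309 to 1.56, adjusted p 0.995), and the *Thrb*-KO response was 97.5% of the wild-type response on the log2(CPM + 1) scale. Its sign was not fixed. It was 0.88 in replicates 1 and 2 and -0.64 in replicates 3 to 5, -0.44 in edgeR and -0.45 in DESeq2, and it turned negative without hypothyroid wild-type replicate 3 (-0.07) or 4 (-0.01) or hyperthyroid wild-type replicate 1 (-0.15) or 2 (-0.45).

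Between genotypes at the same hormone state, the pooled *Tshb* levels did not pass the test. In hypothyroid mice the *Thrb*-KO mean was 0.845 of the wild-type mean, and limma gave -0.18 (adjusted p 0.895, 1 of 5 *Thrb*-KO libraries above the wild-type mean of CPM). Within replicates 1 and 2 this difference was 0.08, within replicates 3 to 5 it was -0.51, and without hypothyroid wild-type replicate 3 it was 0.02. In hyperthyroid mice the mean ratio was 0.671 and limma gave -0.05 (95% interval -1.068 to 0.961, adjusted p 0.959), while edgeR gave -0.71 and DESeq2 -0.73, neither called. That pooled value joins opposite differences. In replicates 1 and 2 *Tshb* was 1.92-fold higher in *Thrb*-KO (limma 0.95, adjusted p 0.00834, 2 of 2 *Thrb*-KO libraries higher), and in replicates 3 to 5 the ratio was 0.438 (limma -1.15, adjusted p 0.00182, 3 of 3 lower). The pooled sign also turned without hyperthyroid wild-type replicate 3 (0.48) or 4 (0.27) or hyperthyroid *Thrb*-KO replicate 2 (0.11). From high to low the *Tshb* means ran hypothyroid wild type, hypothyroid *Thrb*-KO, hyperthyroid wild type and hyperthyroid *Thrb*-KO, and only the step between the hormone states exceeded the spread. The table lists 3 *Tshb* transcripts, and the 2 not used had 98.2 to 99.9% of the CPM of the one used, so they share reads and add no separate measurement.

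*Cga*, the shared α subunit, fell with T3 by a smaller factor than *Tshb*. Hypothyroid wild-type libraries held 6393, 5973, 11010 and 9097 CPM of *Cga*, and hyperthyroid wild-type libraries held 1272, 1153, 1652 and 1342 CPM. Hypothyroid *Thrb*-KO libraries held 5730, 6269, 5161, 6761 and 6075 CPM, and hyperthyroid *Thrb*-KO libraries held 1355, 1416, 1436, 1284 and 1411 CPM. The hormone states did not overlap in either genotype, while the genotypes overlapped within each hormone state. Replicates 3 and 4 of the hypothyroid wild type were again the high ones. Gonadotrophs also make *Cga*, so its level is not a measure of thyrotrophs alone.

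The wild-type mean of *Cga* was 5.99-fold lower with T3, from 8118 ± 2373 to 1355 ± 213 CPM (SD, n = 4 and 4), and the *Thrb*-KO mean was 4.35-fold lower, from 5999 ± 599 to 1380 ± 61.9 CPM (SD, n = 5 and 5). In limma the *Cga* change was -2.55 in wild type (adjusted p 2.64e-09, 4 of 4 libraries lower) and -2.11 in *Thrb*-KO (adjusted p 9.92e-08, 5 of 5 lower), which ranked 19 and 4 among falls. Ratios within the sets were 5.10-fold and 6.71-fold lower in wild type and 4.33-fold and 4.36-fold lower in *Thrb*-KO. The interaction of *Cga* in limma was 0.43 (95% interval -0.02971 to 0.8992, adjusted p 0.388) and was not called.

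In hypothyroid mice *Cga* was lower in *Thrb*-KO by -0.40 in limma (adjusted p 0.163), which did not pass. This difference was -0.04 in replicates 1 and 2, and -0.75 in replicates 3 to 5, where limma called it (adjusted p 0.0106, 3 of 3 *Thrb*-KO libraries lower). In hyperthyroid mice *Cga* differed by 0.04 in limma (95% interval -0.29 to 0.3668, adjusted p 0.907), and the sign turned in replicates 3 to 5 (-0.11), under the TMM scaling of edgeR (-0.06), in edgeR and DESeq2 (-0.07 each) and without hyperthyroid wild-type replicate 2 (-0.03). The order of the *Cga* means was hypothyroid wild type, hypothyroid *Thrb*-KO, hyperthyroid *Thrb*-KO and hyperthyroid wild type, and neither pair within a hormone state differed beyond its spread.

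The balance of the subunits can be read within a library as the CPM ratio of *Tshb* to *Cga*, which no scaling between libraries touches. It was 0.503, 0.486, 0.587 and 0.624 in hypothyroid wild type and 0.0602, 0.0351, 0.256 and 0.202 in hyperthyroid wild type. It was 0.563, 0.512, 0.687, 0.66 and 0.795 in hypothyroid *Thrb*-KO and 0.103, 0.06, 0.0963, 0.131 and 0.106 in hyperthyroid *Thrb*-KO. Every hyperthyroid library thus had a lower ratio than every hypothyroid library of its genotype, with the hyperthyroid wild type split between replicates 1 and 2 and replicates 3 and 4. The ratio is not a ratio of molecules, since the genes differ in length.

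The log2 ratio of *Tshb* to *Cga* differed by -2.42 in wild type (exact permutation test, two-sided, p 0.0286, adjusted 0.0286, 4 of 4 libraries lower). In *Thrb*-KO it differed by -2.72 (exact permutation test, two-sided, p 0.00794, adjusted 0.0159, 5 of 5 lower). Both p-values are the smallest these designs can give. Within replicates 1 and 2 the differences were -3.43 in wild type and -2.77 in *Thrb*-KO, and within replicates 3 to 5 they were -1.41 and -2.69, where the smallest p an exact test can give is 0.333, 0.333, 0.333 and 0.1 in the same order. Without hypothyroid wild-type replicate 1 (-2.46), 2 (-2.48), 3 (-2.39) or 4 (-2.36), the wild-type exact permutation test no longer passed (adjusted p 0.0571). Paired by replicate number as a block, a setting added after seeing the data, neither exact test passed (p 0.125 in wild type and 0.0625, adjusted 0.125, in *Thrb*-KO, the smallest it can give). Whether the ratio responded differently in the 2 genotypes was not tested.

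**Figure D1:**
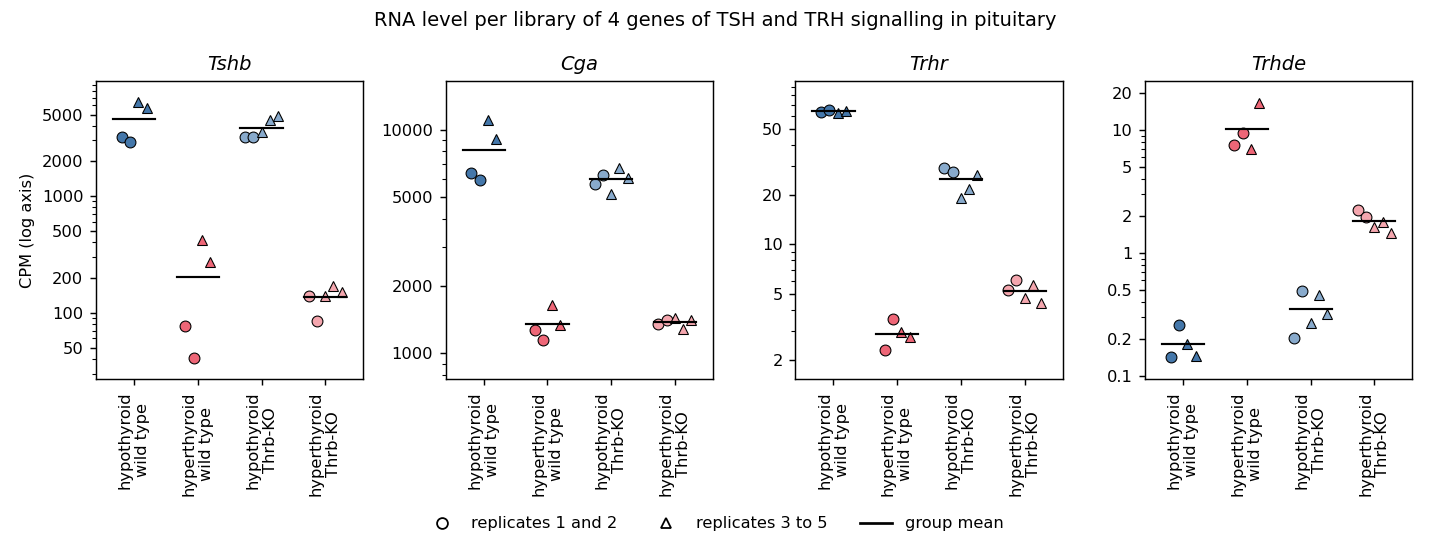
RNA level in CPM on a log axis for Tshb, Cga, Trhr and Trhde, 1 point per library in the 4 groups, circles for replicates 1 and 2, triangles for replicates 3 to 5, and bars for group means. Tshb, Cga and Trhr sit lower in the hyperthyroid groups and Trhde sits higher, and the genotypes separate in both hormone states for Trhr only.

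*Trhr*, the receptor through which thyrotrophs sense TRH, was the member whose level separated all 4 groups. Hypothyroid wild-type libraries held 63.8, 65.2, 62.9 and 64.5 CPM of *Trhr*, and hyperthyroid wild-type libraries held 2.29, 3.52, 2.96 and 2.75 CPM. Hypothyroid *Thrb*-KO libraries held 29.0, 27.6, 19.2, 21.5 and 26.5 CPM, and hyperthyroid *Thrb*-KO libraries held 5.30, 6.07, 4.72, 5.68 and 4.43 CPM. No *Trhr* value of one group reached into another. The *Thrb*-KO groups lay between the wild-type extremes, with less *Trhr* than wild type when hormone was low and more when it was high. The 18 libraries held 73 to 2739 *Trhr* reads. Whole pituitaries were sequenced, so which cells held this RNA was not resolved.

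T3 went with 22.3-fold less *Trhr* in wild type, from 64.1 ± 0.997 to 2.88 ± 0.508 CPM (SD, n = 4 and 4). In *Thrb*-KO the fall of *Trhr* was 4.73-fold, from 24.8 ± 4.21 to 5.24 ± 0.673 CPM (SD, n = 5 and 5). The limma changes of *Trhr* were -4.08 (adjusted p 1.78e-13, 4 of 4 libraries lower) and -2.04 (adjusted p 6.35e-09, 5 of 5 lower), which ranked 4 and 6 among the falls of their comparisons. The mean ratios within the sets were 22.2-fold and 22.3-fold lower in wild type and 4.98-fold and 4.53-fold lower in *Thrb*-KO.

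The *Trhr* response was smaller in *Thrb*-KO, at 50% of the wild-type response on the log2(CPM + 1) scale. The interaction in limma was 2.04 (95% interval 1.684 to 2.398, adjusted p 4.99e-07), with 1.95 in replicates 1 and 2 and 2.10 in replicates 3 to 5. *Trhr* was the 1 of 3 members called in the interaction, where 4.26% of all genes tested were called, and it ranked 11 of 13145 genes among positive values.

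At low hormone *Trhr* was 2.59-fold lower in *Thrb*-KO than in wild type, and limma gave -1.35 (adjusted p 8.07e-07, 5 of 5 *Thrb*-KO libraries lower). At high hormone it was 1.82-fold higher in *Thrb*-KO, and limma gave 0.69 (adjusted p 0.000657, 5 of 5 higher). Within the sets the difference was -1.16 and -1.48 at low hormone and 0.79 and 0.62 at high hormone. *Trhr* was the 1 of 3 members called in each genotype comparison, where 3.02% of genes were called in hypothyroid and 4.86% in hyperthyroid mice. All 5 calls for *Trhr* were kept in all 32 other settings tried.

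*Trhde*, whose product degrades TRH at the cell surface, moved the other way. Hypothyroid wild-type libraries held 0.143, 0.262, 0.184 and 0.145 CPM of *Trhde*, and hyperthyroid wild-type libraries held 7.54, 9.40, 6.97 and 16.7 CPM. Hypothyroid *Thrb*-KO libraries held 0.205, 0.491, 0.271, 0.460 and 0.320 CPM, and hyperthyroid *Thrb*-KO libraries held 2.25, 1.95, 1.64, 1.80 and 1.44 CPM. The hyperthyroid groups overlapped neither with the hypothyroid ones nor with each other, while the hypothyroid genotypes overlapped. In reads, these groups held 4 to 9, 172 to 637, 6 to 15 and 31 to 83 *Trhde* reads per library, so the hypothyroid levels rest on few reads.

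The mean of *Trhde* was 55.3-fold higher with T3 in wild type, from 0.183 ± 0.0559 to 10.1 ± 4.47 CPM (SD, n = 4 and 4), and 5.20-fold higher in *Thrb*-KO, from 0.349 ± 0.123 to 1.82 ± 0.307 CPM (SD, n = 5 and 5). *Trhde* passed the wider limit, above 1 CPM in at least 4 libraries, through its hyperthyroid libraries, so it had to differ to be tested, and its calls are a description. Over the 14472 genes of that table, limma gave 3.16 in wild type (adjusted p 2.8e-10, 4 of 4 libraries higher) and 1.06 in *Thrb*-KO (adjusted p 0.000472, 5 of 5 higher). The interaction of *Trhde* in limma was -2.10 (adjusted p 1.21e-05), with -1.76 in replicates 1 and 2 and -2.39 in replicates 3 to 5. On the log2(CPM + 1) scale the *Thrb*-KO response was 33.5% of the wild-type response. This share depends on the added 1 CPM, which exceeds the hypothyroid levels, so it cannot be set beside shares of genes with higher levels. Without the added 1 CPM the log2 values were larger, at 5.81 in wild type, 2.41 in *Thrb*-KO and -3.40 for the interaction in edgeR, and 5.84, 2.42 and -3.41 in DESeq2. These 3 comparisons called 10.4%, 1.33% and 5.13% of the genes of that wider set.

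At high hormone *Trhde* was 5.58-fold lower in *Thrb*-KO than in wild type, and limma gave -1.91 (adjusted p 2.27e-07, 5 of 5 *Thrb*-KO libraries lower), where 5.65% of the wider table was called. At low hormone the *Trhde* mean was 1.91-fold higher in *Thrb*-KO, with 4 of 5 libraries above all wild-type ones. This difference was 0.19 in limma (adjusted p 0.631), 0.86 in edgeR (adjusted p 0.198) and 0.88 in DESeq2 (adjusted p 0.181), and was not called, where limma called 3.54% of the wider table. The means ran hyperthyroid wild type, hyperthyroid *Thrb*-KO, hypothyroid *Thrb*-KO and hypothyroid wild type, and the last pair overlapped. Replicate 4 held the highest *Trhde* level of the hyperthyroid wild type, and the ratio of means in wild type was 41.8 in replicates 1 and 2 and 72.0 in replicates 3 and 4.

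*Trh* itself, the gene of the hypothalamic releasing hormone, was barely detected in the pituitary. Libraries held 1 to 8 *Trh* reads, with 18 reads over the 4 hypothyroid and 15 over the 4 hyperthyroid wild-type libraries, and 17 and 25 over the 5 libraries of each *Thrb*-KO group. *Trhr2*, the TRH receptor known from the brain, had 0 or 1 read per library and 6 in all, of which 3 were in the hypothyroid wild type. At this depth no difference in *Trh* or *Trhr2* was detectable, and no fold is given for either. Of the 6 hypothalamic markers, *Pmch*, *Hcrt*, *Crh* and *Sim1* were below 1 CPM in all libraries, and the summed level, led by *Oxt*, was 20.8 CPM in hyperthyroid wild-type replicate 3 and 2.01 to 6.39 CPM in the other libraries.

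**Figure D2:**
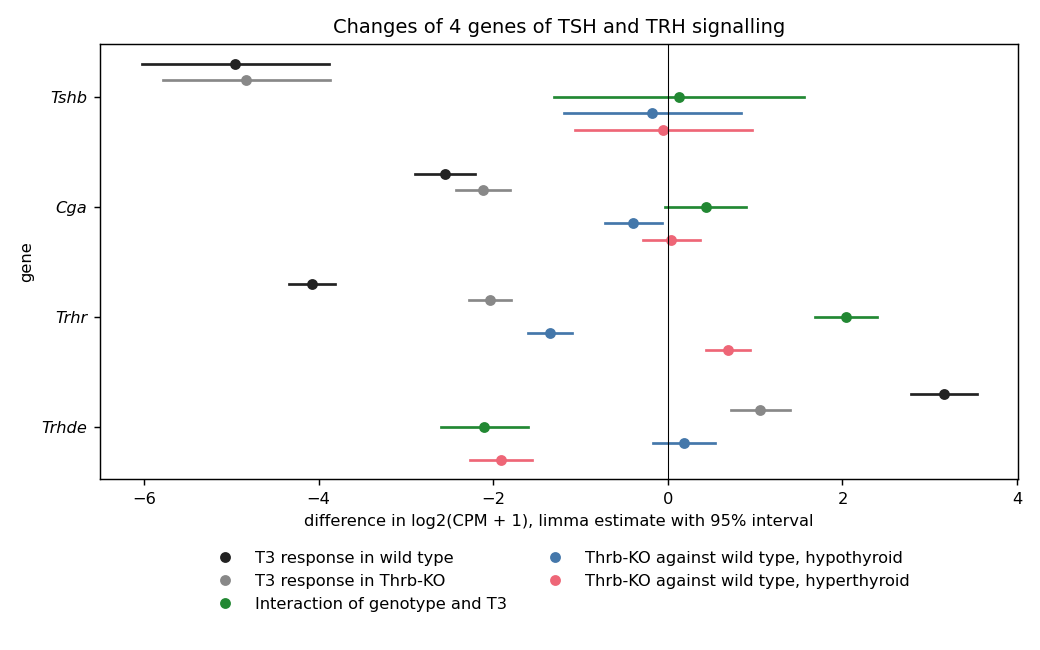
Difference in log2(CPM + 1) from limma with 95% intervals, for Tshb, Cga, Trhr and Trhde in 5 comparisons. The interaction interval spans 0 for Tshb and Cga, lies above 0 for Trhr (1.684 to 2.398) and below 0 for Trhde (-2.603 to -1.599). Trhde is from the wider table, which it entered through its hyperthyroid libraries, so its intervals are a description.

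Genes downstream of the TRH receptor carry its signal from Gq to phospholipase C, inositol trisphosphate receptors and protein kinase C. Of the 17 genes listed for TRH receptor signalling, 16 were tested, and in wild type 4 were called lower with T3 and 0 higher, where 9.46% of all genes tested were called. The list median was -0.26 beside -0.04 over all genes. *Plcb1*, a phospholipase C, fell from 44.4 to 23.8 CPM (limma -0.93, adjusted p 0.000319), and *Gnaq*, the Gq α subunit, from 183 to 111 CPM (limma -0.74, adjusted p 0.000824). *Prkca*, a protein kinase C, fell from 87.8 to 55.5 CPM (limma -0.71, adjusted p 0.0285), and *Itpr3*, an inositol trisphosphate receptor, from 56.3 to 37.4 CPM (limma -0.59, adjusted p 0.0339).

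Of these calls, those of *Prkca* and *Itpr3* were lost when any of several libraries was left out. *Prkca* was no longer called without hypothyroid wild-type replicate 1 (-0.64) or 2 (-0.60) or hyperthyroid wild-type replicate 3 (-0.49) or 4 (-0.61). *Itpr3* was no longer called without hypothyroid wild-type replicate 1 (-0.49) or 2 (-0.49) or hyperthyroid wild-type replicate 3 (-0.44) or 4 (-0.53), nor under TMM (-0.49), edgeR (-0.54) or DESeq2 (-0.53). Within replicates 1 and 2 alone *Gnaq* (-0.51), *Prkca* (-0.49) and *Itpr3* (-0.56) were under 1.5-fold. In the *Thrb*-KO response, the interaction and the genotype comparisons, limma called 0 of the 16, with medians of -0.12, 0.12, -0.17 and 0.13. At an unadjusted p below 0.05 there were 3, 2, 4 and 5 of them, and edgeR and DESeq2 each called 0, 0, 1 and 0. Over all genes the medians of these 4 comparisons were -0.01, 0.04, 0.03 and 0.07, and 1.01%, 4.26%, 3.02% and 4.86% were called.

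Peptide hormones such as TRH are cut from their precursors and amidated, and pituitary cells express the same enzymes for their own hormones. Of 9 genes listed for TRH maturation and breakdown, 8 were tested here beside *Trhde*, and 2 were called lower with T3 in wild type (median -0.40, beside -0.04 and 9.46% called over all genes). *Pcsk1*, a prohormone convertase, fell from 698 ± 83.1 to 128 ± 5.54 CPM in wild type (SD, n = 4 and 4) and from 270 ± 38 to 165 ± 11 CPM in *Thrb*-KO (SD, n = 5 and 5). Its limma change was -2.43 in wild type (adjusted p 1.79e-11) and -0.70 in *Thrb*-KO, the 1 call of the list there (median -0.13, with 1.01% of all genes called), and the interaction was 1.73 (adjusted p 4.99e-07). *Pam*, which amidates peptides, fell from 1125 ± 132 to 398 ± 28.9 CPM in wild type and from 702 ± 32.6 to 482 ± 19 CPM in *Thrb*-KO (limma -1.49 in wild type, adjusted p 8.4e-10, interaction 0.95, adjusted p 5.14e-05).

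*Pcsk1* and *Pam* were the 2 genes of the list called in the interaction (median 0.21, beside 0.04 and 4.26% called over all genes). At low hormone 3 of the 8 were lower in *Thrb*-KO (median -0.25, beside 0.03 and 3.02% called over all genes). In limma these were *Pcsk1* (-1.37, adjusted p 1.05e-07), *Pam* (-0.67, adjusted p 3.04e-05) and *Pcsk2*, another convertase (-0.68, adjusted p 0.0106), which was not called without hypothyroid wild-type replicate 4 (-0.57). *Pcsk2* also stands in the list of 2 melanotroph markers, and the other one, *Pax7*, was at 34.4 and 34.2 CPM in hypothyroid wild type and *Thrb*-KO. Of the 3 corticotroph markers, *Pomc* was at 5167 ± 1797 and 3429 ± 617 CPM (SD, n = 4 and 5), while *Tbx19* was at 77.0 and 94.7 CPM and *Crhr1* at 10.9 and 13.1 CPM, and limma called none of the 3, with 1 at an unadjusted p below 0.05 and 0 in edgeR and DESeq2. Their part in the *Pcsk1*, *Pam* and *Pcsk2* differences was not tested. At high hormone limma called 0 of the 8 (median 0.16) and 4.86% of all genes, with 4 at an unadjusted p below 0.05 and 0 in edgeR and in DESeq2. Within replicates 1 and 2 the *Pam* difference at low hormone was -0.53, under 1.5-fold.

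Thyrotroph identity rests on a few transcription factors, among them *Pou1f1* and *Gata2*, which act on the *Tshb* promoter. Of 12 listed, 9 were tested, and in the wild-type response 2 were called lower and 1 higher (median -0.07, with 9.46% of all genes called). *Gata2* fell from 78.0 to 50.1 CPM (limma -0.64, adjusted p 7.79e-05), *Isl1*, a LIM homeodomain factor, from 19.9 to 11.4 CPM (limma -0.75, adjusted p 0.000332), and *Lhx3*, another LIM factor, rose from 69.4 to 107 CPM (limma 0.60, adjusted p 0.006). The *Gata2* change was under 1.5-fold without hyperthyroid wild-type replicate 2 (-0.57), in replicates 3 to 5 (-0.58), under TMM (-0.54), in edgeR (-0.58) and in DESeq2 (-0.57). The *Lhx3* change was under 1.5-fold without hypothyroid wild-type replicate 1 (0.58) or 2 (0.55) or hyperthyroid wild-type replicate 1 (0.58) or 4 (0.48), and in replicates 3 to 5 (0.55).

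In hyperthyroid mice *Pou1f1* was higher in *Thrb*-KO, 180 against 116 CPM (limma 0.63, adjusted p 0.0176), the 1 factor called in that comparison (median 0.17, with 4.86% of all genes called). It was not called without hyperthyroid wild-type replicate 3 (0.54) or hyperthyroid *Thrb*-KO replicate 5 (0.58), in replicates 1 and 2 (0.41), under TMM (0.53), in edgeR (0.56) or in DESeq2 (0.55). Limma called 0 of the 9 factors in the *Thrb*-KO response, the interaction and the hypothyroid comparison, with medians of -0.08, 0.07 and 0.10, where 1.01%, 4.26% and 3.02% of all genes were called, so that 0 of 9 is near the share over all genes. At an unadjusted p below 0.05 there were 1, 2 and 4, and edgeR and DESeq2 called 0 in each.

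Other glycoprotein hormone genes were listed beside *Tshb* and *Cga*. Of 7 listed, only *Lhb* and *Fshb*, the β subunits of the gonadotropins, were above 1 CPM in all libraries. Limma called 0 of these 2 in any of the 5 comparisons, with medians of 0.02, -0.20, -0.21, 0.08 and -0.13, where 9.46%, 1.01%, 4.26%, 3.02% and 4.86% of all genes were called. At an unadjusted p below 0.05 there was 1, in the *Thrb*-KO response, and edgeR and DESeq2 called 0. *Tshr*, the TSH receptor, was in the wider table only, and at low hormone it was higher in *Thrb*-KO, 4.14 ± 0.968 against 1.82 ± 0.221 CPM (limma 0.85, adjusted p 0.000515).

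Genes of thyroid hormone action were listed for the feedback arm. Of 16 listed, 13 were tested, and *Dio2*, the deiodinase that makes T3 from T4, and *Thrb* were the 2 called in the wild-type response (median -0.16, with 9.46% of all genes called), while edgeR and DESeq2 each called 4 of the 13. *Dio2* fell from 1069 ± 145 to 36.9 ± 2.80 CPM in wild type and from 689 ± 87.4 to 172 ± 26 CPM in *Thrb*-KO, the 1 gene of the list called there (median -0.05, with 1.01% of all genes called). Its limma interaction was 2.81 (adjusted p 1e-08), and its *Thrb*-KO response was 41.6% of the wild-type one on the log2(CPM + 1) scale, beside 50% for *Trhr*. *Thrb* and *Dio2* were the 2 genes called in the interaction (median 0.13, with 4.26% of all genes called) and in the hyperthyroid comparison (median 0.21, with 4.86% called), where limma gave *Dio2* 2.18 (adjusted p 1.05e-09). In the hypothyroid comparison (median 0.16, with 3.02% of all genes called), *Dio2* was lower in *Thrb*-KO (limma -0.63, adjusted p 0.00265), which fell under 1.5-fold without hypothyroid wild-type replicate 3 (-0.58) or 4 (-0.57), in replicates 1 and 2 (-0.27) and with replicate number as a block (-0.57).

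Of 5 genes listed for other inputs to thyrotrophs, 3 were tested. *Nmb*, which encodes the peptide neuromedin B, fell from 7.14 ± 3.31 to 2.61 ± 0.870 CPM in wild type (limma -1.11, adjusted p 0.00218), while its *Thrb*-KO means were 2.41 and 2.82 CPM. At low hormone *Nmb* was lower in *Thrb*-KO (limma -1.17, adjusted p 0.00282), and its interaction was 1.27 (limma, adjusted p 0.0222), which was not called without hypothyroid wild-type replicate 3 (1.12) or 4 (1.07) or hyperthyroid wild-type replicate 2 (1.11). *Nmb* was the 1 gene of the 3 called in these 3 comparisons, where 9.46%, 4.26% and 3.02% of all genes were called in the order wild-type response, interaction and low hormone, with list medians of 0.36 in the wild-type response, -0.15 in the interaction and -0.37 at low hormone. Limma called 0 in the *Thrb*-KO response (median 0.21, 1.01% of all genes called, 0 at an unadjusted p below 0.05) and 0 at high hormone (median -0.09, 4.86% of all genes called, 1 at an unadjusted p below 0.05), and edgeR and DESeq2 each called 0 in the former and 1 in the latter. *Sstr2*, a somatostatin receptor, was in the wider table and rose with T3 in wild type from 1.69 to 5.13 CPM (limma 1.15, adjusted p 0.00177), which was not called in replicates 3 to 5 alone (0.87). At high hormone it was lower in *Thrb*-KO (limma -0.85, adjusted p 0.018), and not called without hyperthyroid wild-type replicate 1 (-0.69) or 2 (-0.78) or hyperthyroid *Thrb*-KO replicate 3 (-0.76), nor in replicates 3 to 5 alone (-0.41).

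Of the markers of neighbouring hormone cells, *Gh* and *Prl* were called in the wild-type response to T3, where 9.46% of all genes were, and *Prl* in the *Thrb*-KO response, where 1.01% were. The somatotroph list, 2 genes led by *Gh*, summed to 48444, 51128, 66337 and 57840 CPM in hypothyroid and 104449, 87484, 159203 and 112261 CPM in hyperthyroid wild type. In *Thrb*-KO its sum was 57984, 57874, 73859, 70460 and 72611 CPM in hypothyroid and 95075, 89501, 83010, 88489 and 115091 CPM in hyperthyroid libraries. These groups did not overlap between hormone states. *Prl*, the lactotroph marker, was at 6178, 5863, 8631 and 9334 CPM in hypothyroid and 15603, 14523, 53184 and 26905 CPM in hyperthyroid wild type, and its mean rose from 5165 to 16260 CPM in *Thrb*-KO. In limma *Gh* rose by 1.03 in wild type (adjusted p 0.0017), and *Prl* by 1.70 in wild type (adjusted p 0.000491) and 1.63 in *Thrb*-KO (adjusted p 0.00173), while *Gh* was not called in *Thrb*-KO (0.50, adjusted p 0.337) nor *Ghrhr*, the other somatotroph marker, in wild type (0.20, adjusted p 0.231). With no filter on low values limma called neither *Gh* (adjusted p 0.972) nor *Prl* (adjusted p 0.152 in wild type and 0.426 in *Thrb*-KO), at the same changes. The corticotroph sum was 5255 CPM in hypothyroid and 5339 CPM in hyperthyroid wild type.

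Hyperthyroid wild-type replicate 3 held the highest sum of both lists and the highest *Tshb* of its group, and its TMM factor was 0.8318, the lowest of the 18. The gonadotroph list, 4 genes led by *Fshb*, which share *Cga* with thyrotrophs, summed to means of 1044, 1024, 1137 and 960 CPM in the order hypothyroid and hyperthyroid wild type, then hypothyroid and hyperthyroid *Thrb*-KO. *Nr5a1* was the 1 gene of this list called in the hyperthyroid comparison, higher in *Thrb*-KO (limma 0.60), where the list median was -0.06 and 4.86% of all genes were called. The other 3 had lower means in hyperthyroid *Thrb*-KO than in wild type, at 495 and 534 CPM for *Fshb*, 369 and 409 CPM for *Lhb*, and 47.95 and 48.31 CPM for *Gnrhr*. The *Nr5a1* difference was under 1.5-fold without hyperthyroid wild-type replicate 2 (0.55) or 3 (0.54) or hyperthyroid *Thrb*-KO replicate 3 (0.54), 4 (0.57) or 5 (0.58). It was also under 1.5-fold in replicates 1 and 2 (0.47), with the library set as a block (0.58), under TMM (0.51) and in edgeR and DESeq2 (0.53 each). *Col1a1*, a stromal marker, was lower with T3 in wild type (limma -0.73), though not called without hypothyroid wild-type replicate 1 (-0.61) or hyperthyroid wild-type replicate 3 (-0.55). *Dcn*, the leading stromal marker, went from 91.7 to 118 CPM (limma 0.34, adjusted p 0.108), and the sum of the 3 stromal markers from 169 to 174 CPM. The 3 immune markers summed to 50.6 to 55.2 CPM in hypothyroid wild type and 29.3 to 35 CPM in hypothyroid *Thrb*-KO, without overlap. Limma called *Csf1r*, of macrophages, among them (-0.77), where 3.02% of all genes were called, and edgeR and DESeq2 each called all 3, where they called 537 and 580 of 13145 genes. In wild type the 3 erythroid markers, led by *Hba-a1*, summed to 28.5 to 55.5 CPM in hypothyroid and 65.7 to 77.7 CPM in hyperthyroid libraries. The 2 posterior lobe markers, led by *Rax*, summed to 5.26 to 7.31 CPM and 8.08 to 11.3 CPM in the same groups. Neither pair of ranges overlapped in wild type, while both did in *Thrb*-KO, and how often other genes fail to overlap was not counted. Limma called 0 of the 3 erythroid and 0 of the 2 posterior lobe markers in either response to T3, where 9.46% and 1.01% of all genes were called. In wild type 0 and 2 of them had an unadjusted p below 0.05, and edgeR and DESeq2 each called 0 and 1. The 2 melanotroph markers, led by *Pcsk2*, summed to 379 to 534 CPM in hypothyroid and 276 to 357 CPM in hyperthyroid wild type, without overlap. In *Thrb*-KO they summed to 246 to 383 CPM and 216 to 315 CPM, with overlap. Limma called 0 of the 2 in either response to T3, where 9.46% and 1.01% of all genes were called, with 1 at an unadjusted p below 0.05 in wild type. Over all libraries the remaining lists summed to 59.5 to 158 CPM for 3 endothelial and 35 to 54.5 CPM for 3 stem and folliculostellate markers. The part of these other cell types in the changes of *Tshb*, *Cga*, *Trhr* and *Trhde* was not tested.

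Over the 18 libraries, the 5 genes most like *Tshb* among 13144 others were *Thy1* (Pearson r 0.9731, Spearman rho 0.897), *Cga* (0.9715, 0.88), *Prss28* (0.9681, 0.851), *1500009L16Rik* (0.9565, 0.86) and *Ttr* (0.9522, 0.872). Those most like *Trhr* were *Parm1* (r 0.9839, rho 0.983), *Chrdl1* (0.979, 0.882), *Peg10* (0.9784, 0.983), *Nell2* (0.9743, 0.87) and *Pam* (0.9727, 0.938). The libraries fall in 4 groups, so these r values mostly describe group means, and 20 genes had r above 0.9 with *Tshb* and 85 with *Trhr*.

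The gene loci were compared with the peak lists on the build of those lists (NCBIM37, mm9). *Tshb* lies at chr3:102581321-102586637 on the minus strand, *Cga* at chr4:34841028-34854619 on the plus strand and *Trhr* at chr15:44027681-44067458 on the plus strand. *Trhr2* lies at chr8:124880867-124884646, *Trh* at chr6:92192055-92194644 and *Trhde* at chr10:113835879-114239363, all on the minus strand. A peak within 20 kb of the gene body counts as near.

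*Tshb*, *Cga* and *Trhr* had no near peak in any of the 3 lists. Of 21506 genes placed once in the annotation, 30.5% had a near pituitary TRβ peak, 26.0% a near cortex TRβ peak and 5.90% a near T3-regulated ATAC peak. Having no near peak was thus the common case in each list, and a link with the direction of the RNA change was not tested. The nearest pituitary TRβ peak was 392 kb from *Tshb*, 206 kb from *Cga* and 512 kb from *Trhr*. The nearest T3-regulated ATAC peak was 715, 175 and 669 kb from these 3 genes in the same order, and the nearest cortex TRβ peak 813, 493 and 551 kb. The distances say only which regions passed the limits of the lists, in untreated mice for TRβ.

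*Trhde* was the 1 of 6 members with a near pituitary TRβ peak, where 30.5% of 21506 placed genes had one, and the 1 of 6 with a near T3-regulated ATAC peak, where 5.90% had one. The gene spans 403485 bases, which gives peaks more room than in the other members. Its TRβ peak lay in intron 3 at chr10:114076851-114077100, 162 kb from the annotated start, with 16 reads in tagged and 3 in control libraries (fold 4.45, FDR 4.89e-07 from SICER). Only 7.33% of the pituitary list had a lower fold, and the list median was 10, so this was a weak peak of its list. Of the 3 ATAC peaks near *Trhde*, those at chr10:114064461-114064739 and chr10:114076257-114076646 were also in intron 3, and the latter ended 205 bases from the TRβ peak without overlap. The one at chr10:114238672-114239018 lay 252 bases upstream of the start of the coding transcript. The ATAC list gives no direction, so whether these regions were more open with or without T3 is not known from it.

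**Figure D3:**
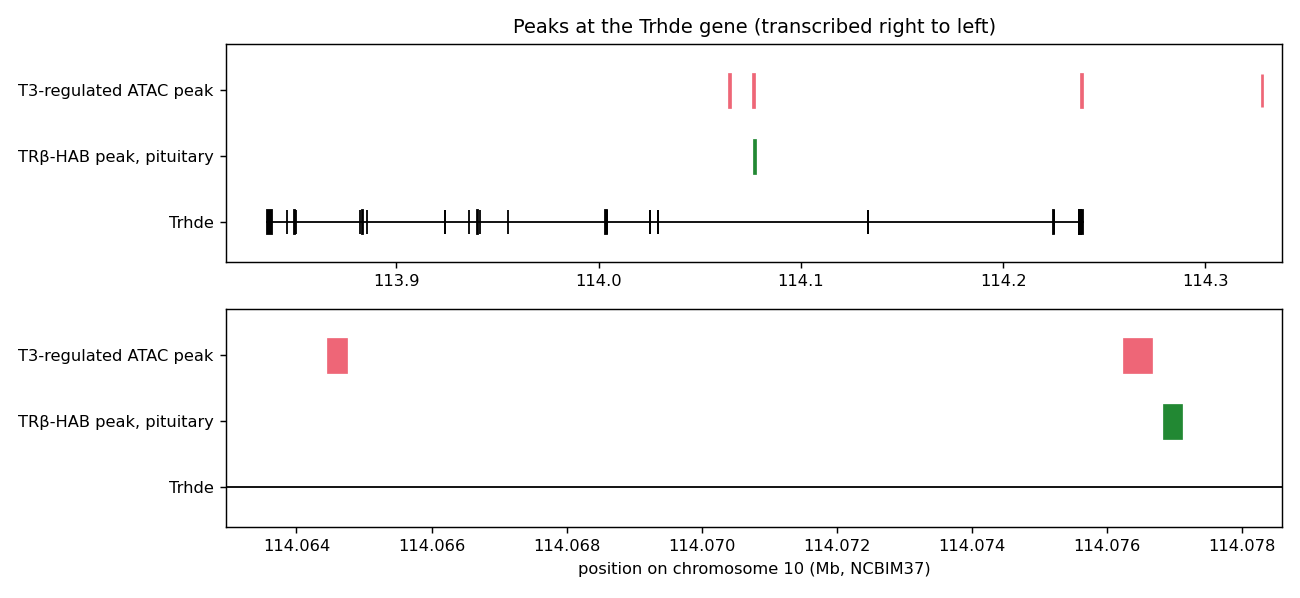
Map of Trhde on chromosome 10 (Mb, NCBIM37), with exons as black boxes, the pituitary TRβ peak in green and T3-regulated ATAC peaks in red, the whole gene above and a close view of part of intron 3 below. 2 ATAC peaks and the TRβ peak lie within intron 3, and the closest pair is 205 bases apart.

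*Trh* and *Trhr2* had near peaks in the cortex list only, so 2 of 6 members did, where 26.0% of placed genes had one. Those of *Trh* lay 6.76 and 14.8 kb upstream, at chr6:92201401-92201950 (12 reads against 1, fold 10.2) and chr6:92209451-92209900 (10 reads against 1, fold 8.52). Those of *Trhr2* lay 13.5 kb downstream at chr8:124866401-124867400 (23 reads against 5, fold 3.92) and 15.7 kb upstream at chr8:124900301-124900700 (14 reads against 0, fold 47.7). These folds are those listed by SICER. The folds over 1 control read are rough, and the 47.7 over 0 control reads is not a measured ratio. The nearest pituitary TRβ peak of *Trhr2* was 29.4 kb away and that of *Trh* 152 kb. RNA of the cortex was not analysed here.

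The sequences under 2 peaks of *Trhde* are shown because it was the 1 member with TRβ and ATAC peaks of pituitary cells. All near peaks of the members were searched on both strands for direct repeats of AGGTCA with a spacer of 0 to 8 bases and at most 2 mismatches over the 12 bases compared. The intron 3 TRβ peak held 1, with a spacer of 4 bases and 2 mismatches. The ATAC peak 12112 bases from it held 2 that share a copy of AGGTCA, with spacers of 1 base (1 mismatch) and 4 bases (2 mismatches), both on the minus strand. The ATAC peak 205 bases from the TRβ peak held 2, with spacers of 5 and 8 bases, and the ATAC peak at the start held 0, and neither sequence is shown. In the printed plus strand, capitals mark the 6-base units of the repeats in the 2 peaks shown.
Trhde intron 3, TRβ peak, chr10:114076851-114077100, NCBIM37, plus strand: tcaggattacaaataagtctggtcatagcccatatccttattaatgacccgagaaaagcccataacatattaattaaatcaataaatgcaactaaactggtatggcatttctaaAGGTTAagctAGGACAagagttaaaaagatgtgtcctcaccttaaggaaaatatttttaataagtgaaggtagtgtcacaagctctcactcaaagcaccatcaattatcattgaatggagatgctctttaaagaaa
Trhde intron 3, ATAC peak, chr10:114064461-114064739, NCBIM37, plus strand: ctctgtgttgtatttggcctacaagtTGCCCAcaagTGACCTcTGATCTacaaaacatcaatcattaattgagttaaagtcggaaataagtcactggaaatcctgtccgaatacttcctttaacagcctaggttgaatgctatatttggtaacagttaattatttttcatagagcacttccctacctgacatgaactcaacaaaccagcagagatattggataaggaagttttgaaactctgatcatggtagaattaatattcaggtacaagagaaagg

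The repeats themselves, read on the strand that carries them, are set out for comparison with AGGTCA, with the spacer in lower case.
Trhde TRβ peak, spacer 4: AGGTTAagctAGGACA
Trhde ATAC peak, spacer 4: AGGTCActtgTGGGCA
Trhde ATAC peak, spacer 1: AGATCAgAGGTCA
Trhde ATAC peak beside the TRβ peak, spacer 5: AGGTTCttatgAGGTCA
Trhde ATAC peak beside the TRβ peak, spacer 8: AGGTCAgacccaagAGGTTT
Trh cortex peak, spacer 0: AGTTCAAGGCCA

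Such matches are common in these lists. On the 7 chromosomes that hold the members and *Thrb*, a repeat with any of these spacers occurred in 43.3% of 2859 pituitary TRβ peaks, 31.4% of 1853 cortex peaks and 53.6% of 748 ATAC peaks. A spacer of 4 occurred in 21.3%, 8.69% and 31.6% of them. The peaks differ in width, with medians of 300, 450 and 295 bases.

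Promoter sequence from 250 bases before to 50 bases after the start was matched in RefSeq (GRCm38.p6) for 4 of 6 members, all but *Trhr* and *Trhr2*. It was searched on both strands for AGGTCA, which occurs in 16.3% of 32851 promoters, for GGGTCA, which occurs in 13.7%, for the cyclic AMP response motif TGACGTCA, which occurs in 1.79%, and for the direct repeat of AGGTCA with a spacer of 4 bases, which occurs in 0.0152%. The *Tshb* promoter held GGGTCA, which begins at base 31 from the start, the *Cga* promoter held AGGTCA, 207 bases before the start, and the *Trh* promoter held AGGTCA on the opposite strand, 57 bases before the start. The other 2 motifs are not in these windows, and none of the 4 motifs is in the *Trhde* window. The *Tshb* and *Cga* promoters are printed because both genes fell with T3, in the reading direction of the gene with the matches in capitals.
Tshb promoter, chr3:102782665-102782964, GRCm38.p6, minus strand: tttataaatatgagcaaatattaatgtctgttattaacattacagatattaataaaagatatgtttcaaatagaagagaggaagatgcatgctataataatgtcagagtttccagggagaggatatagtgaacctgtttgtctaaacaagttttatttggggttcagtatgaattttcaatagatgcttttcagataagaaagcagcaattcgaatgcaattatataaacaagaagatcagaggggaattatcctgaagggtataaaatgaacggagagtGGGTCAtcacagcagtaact
Cga promoter, chr4:34893529-34893828, GRCm38.p6, plus strand: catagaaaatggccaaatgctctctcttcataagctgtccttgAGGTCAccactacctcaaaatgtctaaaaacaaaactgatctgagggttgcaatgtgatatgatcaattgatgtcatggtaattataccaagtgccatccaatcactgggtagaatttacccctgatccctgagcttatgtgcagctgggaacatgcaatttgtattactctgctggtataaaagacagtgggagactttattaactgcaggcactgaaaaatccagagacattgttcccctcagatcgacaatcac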

How the data were processed

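RNA-seq values were deposited by the authors as CPM per RefSeq transcript for 18 pituitary libraries, from single-end reads of 50 bases. Every value became a whole read count within a tolerance of 0.1 (100% of values). The deposited TRβ lists give, for each island, read counts with tag and in control, their scaled ratio (fold) and a false discovery rate (p-value) from SICER 1.1 (windows of 50 bases, 1e-06). The ATAC list's adjusted p-values are the authors' own comparison and were not used here. Submitters' notes also name Bowtie2, MACS2, STAR and edgeR. Of several transcripts of a gene, that with most CPM on average was kept. The 4 groups entered 1 limma 3.58.1 model (R 4.3.3, trend) on log2(CPM + 1), with genes above 1 CPM in all libraries or in at least 4. Alternatives used edgeR 4.0.16, DESeq2 1.42.0, other pseudocounts, filters, TMM, library sets, blocks and leaving out each library. On recovered reads edgeR called 1398, 159, 628, 537 and 793 genes in the wild-type response, the Thrb-KO response, the interaction and the hypothyroid and hyperthyroid genotype comparisons. Residuals of libraries with one replicate number correlated above 0.1 in 25 of 25 pairs (0.13 to 0.815), and in 10 of the 25 the own number gave the best match, so a replicate block was tried. Tables were made with Python 3.11.15, numpy 2.4.6, pandas 2.3.3 and matplotlib 3.10.9. Members and lists were chosen with earlier results of these data known. Named are all members, called genes of the lists (at most 4 per list and comparison), Thrb and the 5 genes most like Tshb and Trhr. Marker lists covered 12 cell types. Depth set a floor of 3 reads. One gene of the lists that the naming rule covers is not reported here.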

Additional observations from a re-analysis of the deposited data

Results flagged for a closer look

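Each value here is a difference between genotypes in the response to T3, called by the limma interaction test at 1.5-fold or more on the log2(CPM + 1) scale, where 4.26% of all 13145 genes tested were called. The difference of responses was 2.04 for Trhr (adjusted p 4.99e-07) and 1.26 for Thrb (adjusted p 0.000322). Genes of the pathway lists were named because they were called, so their number says nothing of the lists. For them it was 2.81 for Dio2 (adjusted p 1e-08), 1.73 for Pcsk1 (adjusted p 4.99e-07), 0.95 for Pam (adjusted p 5.14e-05) and 1.27 for Nmb (adjusted p 0.0222), where Nmb was not called without hypothyroid wild-type replicate 3 (1.12) or 4 (1.07) or hyperthyroid wild-type replicate 2 (1.11). For Trhde it was -2.10 in the wider set of 14472 genes, of which 5.13% were called, and this is a description, since Trhde entered that set through its hyperthyroid libraries. For genes chosen by their likeness to Tshb or Trhr over the same libraries the values are a description too, at 1.60 for Chrdl1, 1.27 for Parm1, 1.43 for Peg10, 1.14 for Nell2 and 2.32 for Prss28. When 1 library was left out, Prss28 was still called without hypothyroid wild-type replicate 1 or 2 or hyperthyroid wild-type replicate 3 or 4, and not called without any of the other 14 (1.95 to 2.41). It was not called under TMM (2.25), in edgeR (2.24), in DESeq2 (2.17) or with no filter on low values (2.32).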

How the results depend on the processing

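Of 2942 pairs of a result and another setting, 2798 kept their direction and their side of the threshold. For 61 results on named genes other than the members, 1850 of 1949 settings kept the call, 99 lost it and 0 reversed. Where a result changed, the cause was not tested.

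With the adjusted p alone and no fold limit, 2536 genes passed in the wild-type response, 235 in the Thrb-KO response, 901 in the hypothyroid and 1586 in the hyperthyroid genotype comparison. With both limits, replicates 3 to 5 alone gave 628 in the hypothyroid and 1114 in the hyperthyroid comparison, beside 397 and 639 from all libraries. TMM moved the split of higher and lower genes from 509 and 735 to 674 and 539 in the wild-type response, from 326 and 234 to 252 and 324 in the interaction, and from 334 and 305 to 239 and 389 in the hyperthyroid comparison.

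For Cga the hypothyroid genotype difference was -0.75 in replicates 3 to 5, and the hyperthyroid one was -0.11 in replicates 3 to 5, -0.06 under TMM, -0.07 in edgeR, -0.07 in DESeq2 and -0.03 to 0.14 leaving out each library. For Tshb the interaction was -0.64 in replicates 3 to 5, -0.44 in edgeR, -0.45 in DESeq2 and -0.45 to 0.66 leaving out each library. The hypothyroid difference of Tshb was 0.08 in replicates 1 and 2 and -0.37 to 0.02 leaving out each library, and the hyperthyroid one was 0.95 in replicates 1 and 2, -1.15 in replicates 3 to 5 and -0.63 to 0.48 leaving out each library. For Thrb the Thrb-KO response was 0.05 in replicates 1 and 2 and the hypothyroid difference -0.05 in replicates 3 to 5.

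The log2 difference of the Tshb to Cga ratio was -3.43 and -1.41 in the library sets of wild type, and -2.77 and -2.69 in those of Thrb-KO, where an exact test cannot pass in so few libraries. Leaving out each library gave -2.86 to -1.91 in wild type. Paired by replicate number, an alternative chosen after seeing the data, it was -2.42 (exact p 0.125) in wild type and -2.72 (exact p 0.0625, adjusted 0.125) in Thrb-KO, the smallest p this block allows. With the replicate block in limma the Tshb interaction stayed uncalled, Dio2 lost its hypothyroid call (-0.57), and no other call of a named gene changed.

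Members with a near pituitary TRβ peak numbered 2 at 50 kb, 2 at 100 kb and 0 at a false discovery rate under 1e-10. For cortex these were 0 at 5 kb and 1 at the stricter rate. Direct repeats numbered 1 with at most 1 mismatch and 54 with at most 3, beside 6. Depth limits Trhr2 (0 to 1 read per library), Trh (1 to 8) and the hypothyroid levels of Trhde (4 to 9 in wild type, 6 to 15 in Thrb-KO).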
